A study of Mus musculus with 16 samples.

Results

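Islets of high-fat-fed mice given a B7-H4 virus were compared with islets of chow-fed Flox mice, gene by gene. The comparison covered 11998 of the 16815 genes listed in both deposited tables, namely those with a mean FPKM (fragments per kilobase of transcript, per sequencing depth) of at least 0.5 over the 8 libraries used, and 8 of the 16 libraries of the series. The study asked how B7-H4, an inhibitory checkpoint protein of the B7 family encoded by Vtcn1, acts in pancreatic β cells, and measured islet RNA by sequencing in 4 groups of 4 libraries. The 4 Flox libraries and the 4 cKO libraries came in 1 table, and the 4 Ctrl and 4 OE libraries in the other. The Flox group was B7-H4 fl/fl mice, in which loxP sites flank an exon of Vtcn1, on the C57BL/6J background, on normal chow and without virus, and their age was not given. The cKO group was the same floxed line on chow with Cre under a rat insulin promoter, which deletes Vtcn1 in β cells. The OE group had been given a high-fat diet for 8 weeks from 6 weeks of age, then an adeno-associated virus that carries B7-H4 and the green fluorescent protein ZSGreen under a rat insulin 2 promoter, infused through the pancreatic duct. Islets were picked by hand after collagenase digestion. The Ctrl group had the same diet and a control virus, and islets of both virus groups were taken 5 weeks after the infusion. The series text calls the virus-treated mice wild type and the vector AAV8, whereas the methods describe floxed mice and AAV2/8. No label says that the 4 libraries of a group came from different mice, so p-values measure the spread between libraries.

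OE differed from Flox in diet, virus, infusion surgery and table at once, and possibly in age, since that of Flox was not given. The sources also disagree on the genotype of the OE mice. These factors cannot be told apart in this comparison. The Ctrl libraries are therefore given beside it: they share diet, a virus infusion and table with OE. The B7-H4 virus by label separates OE from Ctrl, but 2 of the Ctrl libraries were mostly acinar. Because OE and Flox libraries are each shared by 2 of these comparisons, their values are set side by side and no overlap between them is read.

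An islet holds β cells, which secrete insulin and amylin, with fewer α cells (glucagon), δ cells (somatostatin), PP cells (pancreatic polypeptide) and rare ghrelin cells, threaded by capillaries and resident macrophages. β cells turn glucose into insulin release by metabolising it, closing ATP-sensitive potassium channels and letting calcium trigger granule fusion, and long high-fat feeding loads this machinery. Islets are picked by hand out of digested pancreas, so acinar cells, which make digestive enzymes, come along in varying amounts. In bulk RNA, more cells of a type and more RNA per cell cannot be told apart.

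Depth was similar, at 25.15 to 32.02 M assigned fragments a library, and all values below are FPKM divided by a scaling factor for each library (scaled FPKM). Acinar enzymes and markers took 7.88 to 37.5% of FPKM in Flox, 11.7 to 15.2% in OE, 2.29 to 79.2% in Ctrl and 38.3 to 48.5% in cKO, and insulin transcripts 33.0 to 50.5% in Flox, 43.0 to 47.3% in OE and 3.96 to 50.8% in Ctrl, so islet tissue was present in every Flox and OE library. The library labelled Flox16 stood apart: Tph1, the serotonin-synthesis enzyme, was 119 scaled FPKM in it, 0.116, 0.0287 and 0.0623 in the other Flox libraries, 0.0358 to 0.17 in OE and 134 to 212 in cKO. In all, 14 genes, among them Tph1, Sftpd, Lrrc55, Cldn8 and Dnah8, lay at least 3 log2 units higher in Flox16 and all 4 cKO libraries than in the other 3 Flox libraries, whereas no gene did so for Flox17, Flox20 or Flox21. The library labelled Flox17 had the highest acinar share of the group and stood apart for clock genes. Counts over all genes are given with and without Flox16, as are list counts that changed by more than 1 gene and by at least 1.5 times without it.

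**Figure D1:**
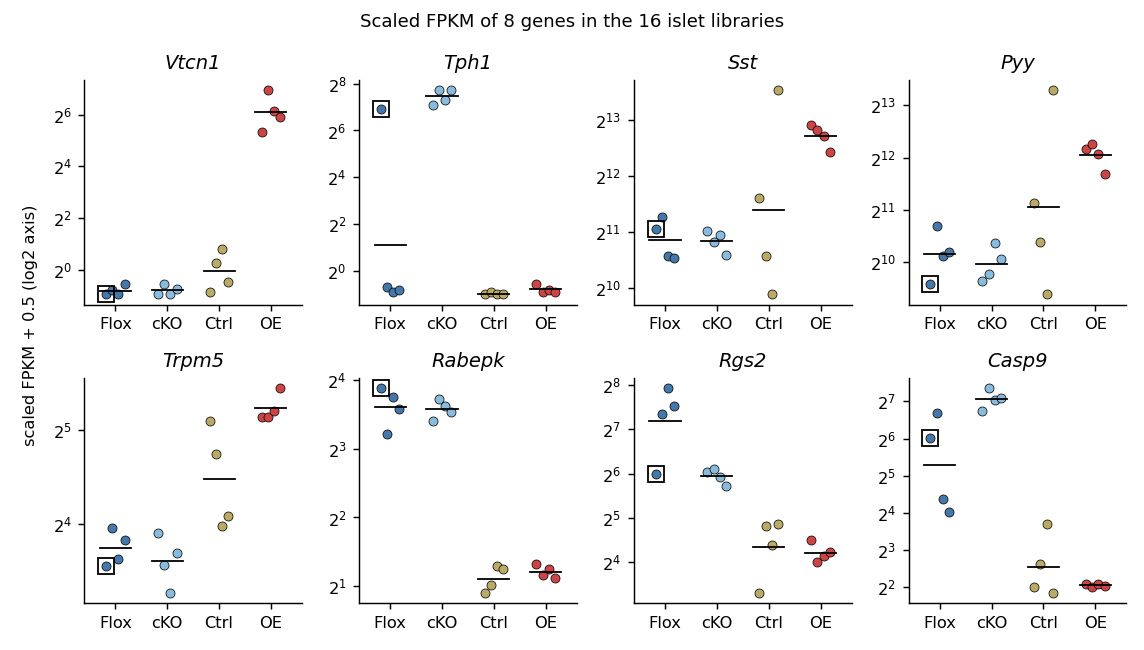
Scaled FPKM plus 0.5 (log2 axis) of 8 genes in each of the 16 libraries, by group; points are libraries, bars the mean on the log2 scale, and the square marks the library labelled Flox16. Vtcn1 is high in OE alone, Tph1 is high in Flox16 and the 4 cKO libraries, Sst, Pyy and Trpm5 are higher in all 4 OE than in all 4 Flox libraries, and Rabepk, Rgs2 and Casp9 lie lower in both virus groups.

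Vtcn1, the gene the virus carries, had 39.9, 124, 70.3 and 59.3 scaled FPKM in OE1 to OE4 and 0.0212, 0.0787, 0.017 and 0.184 in Flox16, Flox17, Flox20 and Flox21. Behind these values stood 2231, 7008, 4372 and 3360 fragments in OE and 1, 3, 1 and 11 in Flox. Every OE library was above every Flox library, with a log2 fold change of 6.89 ± 0.30 (SE) on the log2(scaled FPKM + 0.5) scale, which understates the change of so low a gene (adjusted p = 4.91e-05, limma with Benjamini-Hochberg adjustment over 11998 genes, as for all adjusted p below). Ctrl had 0.0539, 0.688, 1.26 and 0.228 scaled FPKM and cKO 0.024, 0.176, 0.0262 and 0.0924, so Vtcn1 was near 0 in the control virus group as well, and OE exceeded Ctrl by 6.15 (adjusted p = 0.00124). The values do not separate endogenous from vector-encoded transcript.

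Over all genes tested, 180 (1.5%) were called higher in OE and 155 (1.29%) lower, at an adjusted p under 0.05 and a log2 fold change beyond 1 in either direction. Without the fold minimum, 2637 genes (22%) were higher and 2677 (22.3%) lower, so most of the difference was in small shifts: 4979 genes passed the test with a change of at most 1. Counts within gene lists below that come from this fit are to be read against these shares of 22% and 22.3%. Counts from other fits have their own background. With no scaling, 1652 of 11998 genes were higher and 1074 lower. With every gene above 0 FPKM, 2675 of 16773 genes were higher and 2686 lower. Leaving out 1 library gave 2064 to 2736 genes higher and 2104 to 2891 lower. Of the called genes, 165 of the 180 higher and 142 of the 155 lower had no overlap between the 4 OE and 4 Flox values, where 21.1% of all genes lay wholly above and 21.8% wholly below. Called genes were selected for a large difference between these libraries, so a share above that of all genes follows from the selection. Without Flox16, 144 and 129 genes were called, of which 117 and 105 were among the 180 and 155. With no scaling between libraries the split moved to 209 higher and 100 lower, so that 67.6% of calls were higher against 53.7% with scaling.

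**Figure D2:**
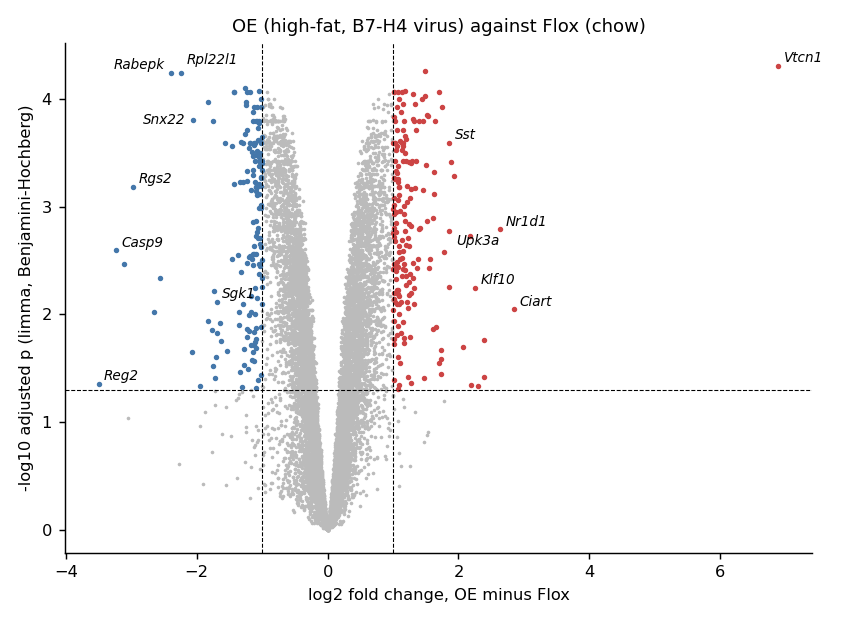
Log2 fold change of OE minus Flox against -log10 adjusted p for the 11998 genes tested; red points are the 180 genes called higher in OE, blue points the 155 called lower, and dashed lines are the thresholds. Vtcn1 lies alone at 6.89, and the genes called lower reach -3.50 (Reg2) and -3.23 (Casp9).

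Against Ctrl, fewer genes set OE apart. OE lay above both Flox and Ctrl, with no overlap, for 447 genes (3.73%) and below both for 304 (2.53%), including 22 of the 180 called higher (12.2%) and 21 of the 155 called lower (13.5%). The test of OE against Ctrl itself called 6 genes (0.05%): Vtcn1, Ghrl, Prph, Vip and Htr3a higher (log2 fold changes 6.15, 3.70, 2.35, 2.12 and 1.52) and Adap2 lower (-1.38). At an unadjusted p under 0.05, 1415 genes were higher and 1246 lower. These counts depended on the Ctrl libraries: without Ctrl2 or Ctrl3, of 60.6 and 79.2% acinar share, 51 and 28 genes were called. By contrast, Ctrl against Flox called 444 genes (3.7%), 262 higher and 182 lower, but 14 without Flox20, 136 without Flox21, 211 without Flox16 and 246 without Ctrl5. Both virus groups lay above both chow groups, all 8 libraries against all 8, for 579 genes (4.83%) and below them for 788 (6.57%), and this held for 42 of the genes called higher in OE (23.3%) and 55 of those called lower (35.5%). Both conditions, OE apart from Flox and Ctrl and the virus groups apart from the chow groups, require OE to lie apart from Flox. Called genes were selected for that, so their higher shares are not a separate result.

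The proximal promoters of 4 genes that the results turn on are shown for the motifs they hold: 3 clock genes that rose, Ciart, Per1 and Nr1d1, and Sgk1, the glucocorticoid-inducible kinase with the lowest fold change of its list. Each line gives the 250 bases before a RefSeq transcription start on GRCm38.p6, 5′ to 3′ on the gene's strand, with CACGTG (the canonical E-box that CLOCK and BMAL1 bind) in capitals in the clock genes and the palindromic glucocorticoid response element, half-sites AGAACA and TGTTCT with 3 bases between them, in capitals in Sgk1.
Ciart (chr3:95882229-95882478, minus strand): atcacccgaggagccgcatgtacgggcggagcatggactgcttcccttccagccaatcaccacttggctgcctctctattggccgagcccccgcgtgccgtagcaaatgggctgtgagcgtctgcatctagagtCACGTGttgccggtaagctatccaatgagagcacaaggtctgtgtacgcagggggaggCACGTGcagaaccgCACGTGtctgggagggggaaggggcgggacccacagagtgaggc
Per1 (chr11:69098699-69098948, plus strand): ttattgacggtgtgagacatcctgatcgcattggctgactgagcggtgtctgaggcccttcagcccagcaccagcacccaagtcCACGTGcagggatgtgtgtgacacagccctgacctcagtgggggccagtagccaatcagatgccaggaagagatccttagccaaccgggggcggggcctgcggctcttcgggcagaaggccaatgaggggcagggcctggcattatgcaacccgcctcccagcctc
Nr1d1 (chr11:98775378-98775627, minus strand): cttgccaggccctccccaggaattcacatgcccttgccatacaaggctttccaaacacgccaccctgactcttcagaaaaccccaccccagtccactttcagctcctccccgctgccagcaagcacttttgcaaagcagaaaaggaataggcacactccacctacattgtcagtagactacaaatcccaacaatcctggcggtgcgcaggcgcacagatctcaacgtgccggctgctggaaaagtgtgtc
Sgk1 (chr10:21993640-21993889, plus strand): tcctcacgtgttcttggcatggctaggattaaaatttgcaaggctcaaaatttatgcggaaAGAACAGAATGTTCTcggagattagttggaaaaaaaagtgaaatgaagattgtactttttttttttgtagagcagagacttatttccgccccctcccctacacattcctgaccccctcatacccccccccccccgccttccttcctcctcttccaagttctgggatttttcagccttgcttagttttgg
Ciart held the E-box 3 times, first bases at -116, -58 and -44 from the start, and Per1 once at -166, whereas Nr1d1 had no CACGTG in this window. The Sgk1 window also held CACGTG, near its 5′ end, where it is not marked. The motif, which reads the same on both strands, occurred in 6.02% of all 32851 listed promoters and 8.27% of those of genes tested, and in 5 of the 16 tested clock genes with a listed promoter, namely Bhlhe41, Ciart, Cry1, Per1 and Tef. The shares count promoters, whereas the clock count is of genes with a match in any of their promoters, 21 in all. The glucocorticoid response element, also the same on both strands, occurred in 3 of the 32851 promoters, and Sgk1, at -189 from 1 of its 6 listed starts, was the single match among genes tested. Of 9 glucocorticoid-induced genes with a listed promoter, 17 promoters in all, 1 gene held it in any of them. A match of letters does not show that a factor binds there.

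Several clock genes rose. The circadian clock is a feedback loop in which CLOCK and BMAL1 (Arntl) drive the Per and Cry repressors, the Rev-erb receptor gene Nr1d1 and output factors such as Dbp, so that levels cycle through the day. Of 19 clock genes tested, 6 rose and 1 fell, with a median log2 fold change of 0.569, where 22% of all genes rose, 22.3% fell and the median of all genes was -0.0053. The time of day at collection was not given in the sources used here.

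Nr1d1, a repressor of Arntl transcription, had 61.8, 91.5, 85.9 and 96.8 scaled FPKM in OE against 5.26, 22.4, 19.6 and 11.5 in Flox and 55.4, 30.3, 12 and 58.2 in Ctrl. All 4 OE libraries were above all others, and the difference from Flox was 2.64 ± 0.41 (adjusted p = 0.00162), 2.23 without Flox16. Ciart, a repressor of CLOCK and BMAL1, had 8.83, 14.9, 10.3 and 10 in OE and 0.713, 6.67, 0.366 and 0.305 in Flox. Its Flox17 value came near the OE range, and the log2 fold change was 2.85 ± 0.65 (adjusted p = 0.00899), or 3.61 without Flox17. Bhlhe40, a helix-loop-helix repressor of the loop, had 16.5, 26.9, 22.2 and 23.9 in OE and 5.84, 12.7, 9.91 and 5.88 in Flox (log2 fold change 1.39, adjusted p = 0.00308), and Per1 had 18.9, 27.5, 25.8 and 30.4 in OE and 6.58, 18, 10.9 and 9.85 in Flox (log2 fold change 1.21, adjusted p = 0.00767). For neither gene did OE and Flox overlap. Bhlhe41 also rose by 0.53 and Clock fell by 0.58 on the log2 scale (adjusted p = 0.00791 and 0.00232). Per2 passed the test at 0.57, but not without Flox16, Flox20, Flox21, OE1, OE2, OE3 or OE4 (adjusted p from 0.064 to 0.11).

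Dbp, with 2.37, 25.1, 4.17 and 1.98 scaled FPKM in Flox and 22.7, 18.6, 18.8 and 13.1 in OE, and Per3, with 1.16, 7.81, 2.45 and 1.33 and 7.7, 5.27, 5.9 and 4.47, did not pass the test (adjusted p = 0.0637 and 0.0977). In both, Flox17 lay above the top of the OE values while the other 3 Flox libraries lay below all 4 OE libraries. Arntl, which cycles in opposite phase to Dbp, was lowest in Flox17 at 0.179 against 0.679 to 1.06 in the other Flox and 0.618 to 0.996 in the OE libraries. Without Flox17, 11 clock genes rose and 2 fell, and Dbp and Per3 were among those that rose, at 2.53 and 1.59 on the log2 scale (adjusted p = 0.000329 and 0.00119). Ctrl lay between the groups on average for Nr1d1, with a log2 difference from Flox of 1.33 that missed the threshold (adjusted p = 0.146).

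**Figure D3:**
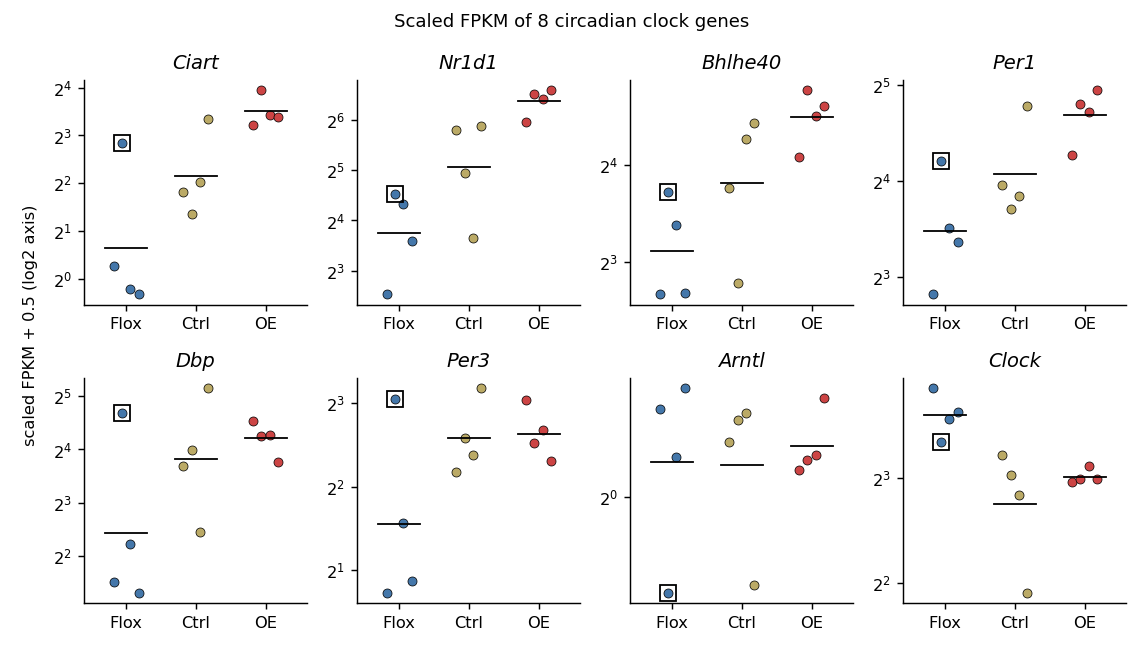
Scaled FPKM plus 0.5 (log2 axis) of 8 clock genes in the Flox, Ctrl and OE libraries; points are libraries, bars the mean on the log2 scale, and the square marks the library labelled Flox17. Ciart, Nr1d1, Bhlhe40 and Per1 are higher in every OE than in every Flox library, whereas in Dbp and Per3 Flox17 reaches the OE values and in Arntl it is the lowest Flox library.

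Klf10, a transforming growth factor-β-inducible and glucose-responsive repressor, had 21.4, 36.2, 30.9 and 32.4 scaled FPKM in OE, 3.07, 17.4, 4.64 and 4.31 in Flox and 17, 4.7, 6.92 and 11.8 in Ctrl, with OE above all of the others (log2 fold change 2.26 ± 0.46, adjusted p = 0.00564). Inka1, an inhibitor of a PAK kinase, rose by 2.18 (adjusted p = 0.00185). Mlxipl, which encodes the glucose-sensing factor ChREBP, had 143, 152, 161 and 189 in OE and 33.3, 83.6, 101 and 90.2 in Flox (log2 fold change 1.17, adjusted p = 0.0183), with a call that was lost without OE4 (adjusted p = 0.0507). Of 26 ChREBP targets and lipogenic genes, 8 rose and 3 fell (median 0.133), with 5 that rose without OE4 and 1 that fell without any 1 of the OE libraries. Those that rose included Srebf1 (log2 fold change 0.86), the lipogenic transcription factor, Pklr (log2 fold change 0.75), a pyruvate kinase, and the pentose phosphate enzymes Tkt (log2 fold change 0.58) and G6pdx (log2 fold change 0.50), all with adjusted p of 0.0106 or less. Thrsp, a lipogenesis-responsive gene, fell by 0.86 on the log2 scale (adjusted p = 0.0024). Fasn and Acaca, lipogenic enzymes at log2 fold changes of 0.11 and -0.16, did not pass.

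Among glycolysis and hypoxia genes, 9 of 16 rose and 1 fell, with a median log2 fold change of 0.245. With no scaling between libraries 5 rose. Aldoa (aldolase) went from between 140.0 and 163 in Flox to between 239 and 256 in OE (log2 fold change 0.72, adjusted p = 0.000218), Pkm (pyruvate kinase) from between 83 and 105 in Flox to between 138 and 152 in OE (log2 fold change 0.58, adjusted p = 0.000822), and Pkm in OE also lay above all 4 Ctrl libraries. Gapdh rose most, from between 9.69 and 12.6 in Flox to between 25.9 and 28.5 in OE (log2 fold change 1.30), although reads of its many processed pseudogenes may have been split. Bnip3, a hypoxia-induced mitophagy receptor, was the member that fell, from between 48.4 and 54.4 in Flox to between 26.5 and 32.5 in OE (log2 fold change -0.76), and it was as low in Ctrl at 25.2 to 36.9. Ldha, the lactate dehydrogenase that β cells keep low, was 2.64, 3.39, 2.54 and 2.21 in Flox and 2.13, 1.69, 2.11 and 2.01 in OE (log2 fold change -0.35, adjusted p = 0.046). It passed the test with all 8 libraries and without Flox21, and not without Flox16, Flox17, Flox20, OE1, OE2, OE3 or OE4 (adjusted p from 0.0596 to 0.125).

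Islet hormones other than insulin and amylin rose. Of 14 hormone and granin genes, 7 rose (50%, against 22% of all genes) and none fell at an adjusted p under 0.05 (median 0.564). Sst, the δ-cell hormone somatostatin, had 7718, 7210, 6697 and 5516 scaled FPKM in OE and 2128, 2473, 1526 and 1476 in Flox, with no overlap, 1.86 ± 0.20 on the log2 scale or 3.63-fold (adjusted p = 0.000253). Pyy, peptide YY, had 4607, 4866, 4275 and 3286 in OE and 768, 1656, 1112 and 1172 in Flox (log2 fold change 1.89 ± 0.23, adjusted p = 0.000386). Gcg, glucagon, had 30762, 25015, 26679 and 26400 in OE and 16923, 13447, 7177 and 9705 in Flox (log2 fold change 1.27 ± 0.28, adjusted p = 0.00629). For all 3 hormones, the lowest OE library lay above the highest Flox library.

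Ins1 and Ins2, by contrast, differed by 0.091 ± 0.29 and 0.11 ± 0.38 (adjusted p = 0.814 and 0.832), and Iapp (amylin) by 0.29 ± 0.21 (adjusted p = 0.284). Ppy, pancreatic polypeptide, passed at 1.70, but not without Flox20, OE1, OE2 or OE3 (adjusted p from 0.0529 to 0.0741). Ghrl, ghrelin, had 9.95, 8.28, 8.9 and 5.35 in OE, 2.08, 6.12, 1.1 and 1.65 in Flox and 0.354, 0.0967, 0 and 0.197 in Ctrl. The OE and Flox ranges overlapped (log2 fold change 1.61, adjusted p = 0.0138), while OE exceeded Ctrl by 3.70 with no overlap (adjusted p = 0.000881). Of the granins, Chga rose from between 4397 and 6725 in Flox to between 8168 and 9615 in OE and Vgf from between 1.39 and 4.37 in Flox to between 5.43 and 8.33 in OE (log2 fold change 0.84 and 1.06), whereas Chgb and Scg2, at log2 fold changes of -0.075 and -0.072, did not pass.

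Lists of markers of the other endocrine cells overlap the hormone list. Of 9 α-cell markers 6 rose and none fell (median 0.812), and of 8 δ-, PP- and ghrelin-cell markers 6 rose and none fell (median 1.4). Of those that rose, Gcg in the first list and Sst, Pyy, Ppy and Ghrl in the second are the hormones counted above. Ttr, transthyretin, rose by 0.81 on the log2 scale, and Rbp4, abundant in δ cells, had 151, 128, 127 and 95.8 in OE and 77.7, 58.9, 41.8 and 44.4 in Flox (log2 fold change 1.19, adjusted p = 0.00226). Hhex, the δ-cell factor, was 0.71 and lost the call without Flox20, OE1, OE2 or OE3 (adjusted p from 0.0591 to 0.0632). The Ctrl values spanned both groups: Sst was 3118, 1520.3, 945 and 11892 and Gcg 19587, 6432, 3204 and 73200 in Ctrl1, Ctrl2, Ctrl3 and Ctrl5. Their OE against Ctrl differences of 1.32 and 1.05 had adjusted p of 0.345 and 0.583.

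Most β-cell transcription factors did not pass the test. Of 20 islet transcription factors, 3 rose and 1 fell (median 0.118). Pdx1 (log2 fold change -0.22), Mafa (log2 fold change 0.19), Nkx6-1 (log2 fold change 0.16) and Neurod1 (log2 fold change -0.32), the core β-cell factors, did not pass (adjusted p from 0.0708 to 0.495). Nkx2-2 (log2 fold change 0.47) rose and Glis3 (log2 fold change -0.32) fell. Isl1 passed at 0.24, but not without Flox16, Flox17, Flox21, OE1, OE2 or OE3 (adjusted p from 0.0509 to 0.0972). Without Flox17, Neurod1 passed too, at -0.44 on the log2 scale (adjusted p = 0.00677).

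Of 11 β-cell maturity genes, 4 rose and 3 fell. Trpm5, a calcium-activated cation channel that potentiates insulin secretion, had 34.9, 34.8, 36.4 and 43.2 scaled FPKM in OE and 11.2, 15.1, 11.9 and 13.8 in Flox, 2.81-fold higher (log2 fold change 1.49 ± 0.11, adjusted p = 9.31e-05). Its OE values were above all Ctrl values, 33.8, 26.3, 15.3 and 16.5, as well, and every Ctrl library was above every Flox library. Ucn3, urocortin 3, a hormone of mature β cells, had 532, 444, 456 and 391 in OE and 155, 229, 248 and 233 in Flox (log2 fold change 1.09, adjusted p = 0.00078). Glp1r rose by 0.63 and Ffar1, a fatty acid receptor, by 0.51 (adjusted p = 0.00231 and 0.0144). G6pc2, the islet glucose-6-phosphatase subunit, fell from between 1028 and 1814 in Flox to between 715 and 945 in OE (log2 fold change -0.73, adjusted p = 0.00816), Ero1b from between 368 and 458 in Flox to between 282 and 296 in OE (log2 fold change -0.50) and Syt4, a synaptotagmin of mature β cells, from between 22.2 and 30.9 in Flox to between 14 and 15.3 in OE (log2 fold change -0.86, adjusted p = 0.000386).

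More glucose-sensing and exocytosis genes rose than fell. Of 20 glucose-sensing and ion channel genes, 8 rose and 2 fell (median 0.298), among them both subunits of the ATP-sensitive potassium channel, Abcc8 (log2 fold change 0.54, adjusted p = 0.00655) and Kcnj11 (log2 fold change 0.37, adjusted p = 0.00693), the incretin receptor Gipr (log2 fold change 0.92) and the calcium channel subunit Cacna1a (log2 fold change 0.73). Slc2a2, the glucose transporter, did not pass (log2 fold change 0.36, adjusted p = 0.0595), although it did without Flox17, at 0.50 (adjusted p = 0.00129). Of 17 exocytosis genes, 8 rose (47.1%, against 22% of all genes) and 2 fell (11.8%, against 22.3%), with a median of 0.221, and 5 rose with no scaling. The SNARE proteins Stx1a (log2 fold change 0.59), Vamp2 (log2 fold change 0.48) and Snap25 (log2 fold change 0.41), the SNARE recycler Napa (log2 fold change 0.86) and the fusion regulator Cplx2 (log2 fold change 0.48) rose, and the granule adaptor Sytl4 fell with Syt4 (log2 fold change -0.55). Sytl4 was tight within groups, 80.9, 83.2, 82.2 and 85.4 in Flox and 56.5, 56.4, 55.9 and 57.3 in OE.

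Of 10 prohormone processing genes, 3 rose and 3 fell (30% each, against 22% and 22.3% of all genes). Pcsk2, the convertase that completes insulin and glucagon maturation, was 993, 904, 901 and 895 in OE and 621, 732, 707 and 694 in Flox (log2 fold change 0.42, adjusted p = 0.00594). Pcsk1n, an inhibitor of the other convertase, had 661, 713, 708 and 724 in OE and 306, 318, 356 and 334 in Flox, 2.13-fold higher (log2 fold change 1.09 ± 0.082, adjusted p = 9.89e-05). Pcsk1 itself was 99.2, 86.3, 89.5 and 77.6 in OE and 188, 132, 117 and 105 in Flox (log2 fold change -0.59, adjusted p = 0.0186), a call lost without OE4 (adjusted p = 0.0576). Sec11c, a signal peptidase subunit, fell by 0.69 on the log2 scale.

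Genes induced by glucocorticoids, the adrenal stress hormones, fell. Of 11 glucocorticoid-induced genes, 6 fell and none rose, with a median of -0.793, and 9 fell without Flox16. Sgk1, whose promoter is shown above, had 6.65, 8.34, 5.8 and 5.77 scaled FPKM in OE against 17.2, 53.3, 18.5 and 14.5 in Flox and 9.19, 16.4, 68.7 and 14.6 in Ctrl, so that OE was below both (log2 fold change -1.69 ± 0.37, adjusted p = 0.00767). Tsc22d3 (GILZ) had 4.63, 4.97, 4.53 and 4.71 in OE and 8.77, 11.6, 7.86 and 7.02 in Flox (log2 fold change -0.82, adjusted p = 0.0015), Ddit4, an mTOR inhibitor, changed by -0.79 and the metallothionein gene Mt2 by -1.02 (adjusted p = 0.00942 and 0.00104). Fkbp5, a co-chaperone of the receptor, was 14.2, 39.4, 54.4 and 51.5 in Flox and 13.8, 21.3, 17.5 and 20.8 in OE. Flox16 lay within the OE range, and the adjusted p was 0.0857 with it and 0.000495 without it. Mt1, Mt2, Errfi1 and Ddit4 were both above and below OE among the 4 Ctrl libraries, with the highest of each in Ctrl3.

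Of 30 genes of endoplasmic reticulum chaperones and the unfolded protein response, 10 fell and 1 rose (median -0.231), with 5 or 6 that fell when OE1, OE2 or OE3 was left out and 4 with no scaling. Without Flox16, 5 rose and 9 fell. Edem1, which sends misfolded glycoproteins to degradation, fell from between 27.9 and 55 in Flox to between 16.3 and 17.9 in OE (log2 fold change -1.06, adjusted p = 0.00197), Dnajc3, an inhibitor of the kinase PERK, from between 84.5 and 125 in Flox to between 57.8 and 62.8 in OE (log2 fold change -0.72, adjusted p = 0.00157) and Ero1a, a disulphide oxidase, from between 10.7 and 15.1 in Flox to between 7.09 and 9.14 in OE (log2 fold change -0.60). Ppp1r15a, which reverses the block on translation, was the member that rose with all 8 libraries, from between 14.9 and 28.4 in Flox to between 38.9 and 61.5 in OE (log2 fold change 1.25, adjusted p = 0.00146). The main chaperones Hspa5 and Hsp90b1 did not pass (log2 fold change -0.25 and -0.21), although Hspa5 did without Flox17, at -0.34 (adjusted p = 0.0369). Atf4 and Ddit3 did not pass with all libraries (log2 fold change 0.58 and 0.16), but without Flox16, where they were 194 and 15 scaled FPKM, they were 0.91 and 0.61 (adjusted p = 0.00431 and 0.00973).

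Of 16 heat shock genes, 4 rose (25%, against 22% of all genes) and 5 fell (31.2%, against 22.3%). The number that rose was 2 without Flox17, OE2, OE3 or OE4, and 8 fell without Flox17. Hspb1, a small heat shock protein, had 46.7, 68.7, 64.1 and 75.4 in OE, 19.7, 14.3, 21.1 and 27 in Flox and 166, 48.6, 115 and 365 in Ctrl (log2 fold change 1.62 ± 0.20, adjusted p = 0.000472), so both virus groups were above Flox. Chordc1, an HSP90 co-chaperone, had 8.55, 7.2, 7.76 and 5.96 in OE, 30.7, 16.9, 22.7 and 22.7 in Flox and 12.1, 12.6, 13.1 and 9.46 in Ctrl (log2 fold change -1.57 ± 0.17, adjusted p = 0.000253), with OE below both. Dnaja1 and Hspd1 fell too (log2 fold change -0.69 and -0.64). Hspa1a and Hspa1b, near-identical copies whose reads may be split, were 2.29 and 2.39, with calls lost without Flox16, Flox17, OE2, OE3 or OE4 (adjusted p from 0.0801 to 0.112).

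Genes of cholesterol efflux, the export of cholesterol to lipoproteins, rose. The study singled out this pathway from the same libraries, so its direction here is not independent evidence. Of 10 efflux genes, 6 rose (60%, against 22% of all genes) and none fell (median 0.437), and without Flox16 6 rose and 1 fell. For Ctrl minus Flox the median of these genes was 0.584 and 3 were higher, and for OE minus Ctrl it was -0.1 and none passed. Apof, apolipoprotein F, which inhibits lipid transfer between lipoproteins, had 1.83, 2.28, 2.43 and 2.33 scaled FPKM in OE, 0.247, 1.44, 0.63 and 1.12 in Flox and 0.679, 1.18, 0.662 and 1.46 in Ctrl (log2 fold change 1.09 ± 0.27, adjusted p = 0.00984). OE lay above both, but the test against Ctrl missed the threshold (0.89, adjusted p = 0.0914). Apoa1, the main apolipoprotein of high-density lipoprotein, had 1.48, 0.599, 0.754 and 2.6 in OE and 0.0685, 0.085, 0.165 and 0 in Flox (log2 fold change 1.56, adjusted p = 0.00306), and its neighbour Apoa4 1.91, 0.102, 1 and 2.29 in OE and 0 in all 4 Flox libraries. Apoa1 was under a mean of 0.5 FPKM without OE4, and Apoa4 without OE1 or OE4, so both genes were tested only through their OE values. Apoa1 is counted among the 6 efflux genes that rose, and its rise is not evidence on efflux genes. The transporter Abcg1 and the oxysterol receptor Nr1h2 rose by 0.44 and 0.78, while the transporter Abca1 stood at 0.047 (adjusted p = 0.904), and at -0.28 without Flox16 (adjusted p = 0.0205).

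Of 25 cholesterol synthesis and uptake genes, 3 rose and 6 fell, and 11 fell without Flox16. Msmo1, a methylsterol oxidase, fell from between 22.9 and 28 in Flox to between 10.9 and 15.5 in OE and was 12.4 to 18.2 in Ctrl (log2 fold change -0.85, adjusted p = 0.000536). Of 10 genes of serotonin synthesis and lactogenic Stat5 signalling, 1 fell and none rose. Cish and Socs2, direct Stat5 targets, differed by -0.053 and -0.011 (adjusted p = 0.958 and 0.986) and, among the Flox and OE libraries, were highest in Flox16, at 60.5 and 8.86, where cKO had 49.7 to 70.5 and 7.33 to 11. Without that library they were 0.68 and 0.48 (adjusted p = 0.2 and 0.00783).

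Antigen presentation genes of class II rose, which present peptides to helper T cells. Of 18 MHC and antigen presentation genes, 6 rose (33.3%, against 22% of all genes) and none fell (median 0.537). Cd74, the invariant chain, had 153, 185, 181 and 229 scaled FPKM in OE, 88.3, 80.7, 77.8 and 83.2 in Flox and 252, 161, 119 and 957 in Ctrl (log2 fold change 1.16 ± 0.11, adjusted p = 0.000192), and the α and β chains H2-Ab1 (log2 fold change 1.19), H2-Eb1 (log2 fold change 1.06) and H2-Aa (log2 fold change 0.83) moved alike. For all 4 genes both virus groups lay above both chow groups. The class I genes H2-K1 (log2 fold change 0.43) and B2m (log2 fold change 0.57) did not pass, and Tap1, a peptide transporter, passed at 0.71 with an adjusted p of 0.0207, lost without Flox20 (adjusted p = 0.0501).

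Of 15 macrophage markers 4 rose (26.7%, against 22% of all genes) and 1 fell. Cd68 rose from between 0.74 and 2.11 in Flox to between 3.81 and 5.03 in OE (log2 fold change 1.27, adjusted p = 0.0015). The summed level of the 21 listed markers was 101 to 154 in Flox and 134 to 162 in OE, which overlapped. Lyz2, lysozyme, was the marker that fell (log2 fold change -0.70). Adgre1 and Csf1r, defining markers, stood at log2 fold changes of -0.11 and 0.074 and did not pass. The part of macrophage number in the class II result was not tested. Of the lymphocyte markers, 14 of 15 for T and NK cells and 7 of 8 for B cells were under a mean of 0.5 FPKM. The 2 that were tested, Lck of T cells and Cd79a of B cells, stood at 0.72 and 0.74 on the log2 scale (adjusted p = 0.0265 and 0.00684). The Lck call was lost without Flox17, Flox20, OE2 or OE3 (adjusted p from 0.0531 to 0.0686). Without OE4, Lck was itself under a mean of 0.5 FPKM, so it was tested only with its highest OE library included. The filter favours markers that are high in 1 group, so these 2 rises are not evidence on lymphocytes. The summed B cell markers were 3.33 to 6.19 scaled FPKM in Flox and 8.2 to 9.66 in OE, without overlap, and 3 of the 8 rose when every gene above 0 FPKM was tested. Their part in the class II result was not tested. Among the listed genes of the B7 and CD28 family and related genes, 7 were tested. Vtcn1, which the virus carries and which passed the filter only through its OE values, alone passed the test. Tnfrsf14, a related gene, fell as well without Flox16. The checkpoint ligands Cd274 (PD-L1) and Cd276 (B7-H3) were 0.41 and 0.19 (adjusted p = 0.175 and 0.095).

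Of 36 interferon-stimulated genes, 5 rose (13.9%, against 22% of all genes) and 2 fell. Oas1a, a viral RNA sensor, had 2.25, 1.42, 1.72 and 1.58 in OE and 0.313, 0.388, 0.697 and 1 in Flox (log2 fold change 1.06, adjusted p = 0.00328). Cxcl10, a chemokine, was 3.14, 0.922, 4.18 and 11.9 in OE and 1.23, 0.114, 0.0493 and 0.17 in Flox, with overlapping ranges (log2 fold change 2.40, adjusted p = 0.0173). The number that rose was 2 without OE1 or OE3, 3 without OE4 and 10 without OE2. Of 12 cytokine and NF-κB target genes 3 rose (25%, against 22% of all genes) and none fell. Cx3cl1, fractalkine, had 10.6, 11.1, 9.35 and 9.04 in OE and 4.08, 3.99, 4.16 and 4.68 in Flox (log2 fold change 1.15 ± 0.09, adjusted p = 0.000111), and Tnfaip3, an inhibitor of NF-κB, rose by 1.01. Ccl5 passed at 1.74, but not without Flox16 or OE3 (adjusted p from 0.0552 to 0.0581).

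Endothelial genes rose. Of 15 markers, 8 rose (53.3%, against 22% of all genes) and none fell (median 0.354). The summed level of all listed markers was 287 to 347 scaled FPKM in OE and 198 to 227 in Flox, without overlap. In Ctrl1, Ctrl2, Ctrl3 and Ctrl5 it was 564, 171, 445 and 794. The list median was 0.868 for Ctrl minus Flox and -0.437 for OE minus Ctrl, so the rise was not particular to OE. Robo4, an endothelial guidance receptor, had 6.86, 7.31, 7.04 and 7.21 in OE and 3.91, 3.62, 3.27 and 3.34 in Flox (log2 fold change 0.92 ± 0.078, adjusted p = 0.000133), Plvap, which spans the fenestrae of islet capillaries, rose by 0.78, and Kdr, the main VEGF receptor, by 0.47 (adjusted p = 0.000364 and 0.00148). Pecam1 and Flt1, at log2 fold changes of 0.25 and -0.15, did not pass. Vegfa itself differed by 0.21, from between 94.2 and 103 in Flox to between 112 and 118 in OE, a call lost without Flox20, OE3 or OE4 (adjusted p from 0.051 to 0.06). Of 18 stellate and matrix genes 4 rose and 4 fell (22.2% each, against 22% and 22.3% of all genes). Mgp (log2 fold change 0.66) and Pdgfrb (log2 fold change 0.50) were among those that rose. Col3a1 (log2 fold change -0.84), a fibrillar collagen, was among those that fell. The number that fell was 1 or 2 without any 1 of 6 libraries, all but Flox16 and OE4.

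Some neural genes rose. Of 9 ganglion and Schwann cell markers tested, 3 rose and none fell. When every gene above 0 FPKM was tested, 8 of the 20 listed markers rose, where 2675 of 16773 genes rose. Prph, peripherin, an intermediate filament of peripheral neurons, had 1.99, 2.31, 1.88 and 2.77 in OE, 0.015, 0.838, 0 and 0.617 in Flox and 0.115, 0.0244, 0 and 0 in Ctrl (log2 fold change 1.79 ± 0.33 against Flox, adjusted p = 0.00265, and 2.35 against Ctrl, adjusted p = 0.000881). Th, the catecholamine-synthesis enzyme, had 30.4, 28.4, 30.4 and 32.5 in OE and 5.24, 14.3, 10.5 and 10.5 in Flox (log2 fold change 1.62, adjusted p = 0.00127), and Tubb3, a neuronal tubulin, 24.3, 29.7, 24.3 and 23.1 in OE and 12.7, 8.83, 16.8 and 14.6 in Flox (log2 fold change 0.94). All 3 genes were also above all Ctrl libraries. The filter favours genes high in 1 group, and Prph, with a mean under 0.5 FPKM in Flox, passed it through its OE values. Vip had 1.34, 2.74, 1.76 and 1.57 in OE, 0.544, 1.64, 0 and 4.47 in Flox and 0.124, 0, 0 and 0 in Ctrl, and differed from Ctrl (2.12, adjusted p = 0.00662) but not detectably from Flox (0.58, adjusted p = 0.475). The summed level of the 20 listed markers was 88 to 95.9 in OE and 39.5 to 59.9 in Flox, and 11 of the 20 were under a mean of 0.5 FPKM.

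Few acinar genes passed the test. Of 30 acinar markers, 4 fell and none rose, with a median of -0.643, and the number that fell was 9 without Flox21 and 2 without Flox16 or any OE library. Their summed level was 84300 to 113000 scaled FPKM in OE, inside the 46200 to 381000 of Flox. In a fit that held acinar content constant, a covariate computed from these same genes, 14 rose and 6 fell. Amy2a5, a pancreatic amylase, had 21.6, 10.7, 12.9 and 14 in OE and 185, 278, 137 and 36.6 in Flox (log2 fold change -3.11 ± 0.57, adjusted p = 0.00342, and -3.70 without Flox21), with OE below every Flox library, and its near-identical copies Amy2a3, Amy2a4 and Amy2b, which may share its reads, stood at -2.56, -2.65 and -2.07. The Amy2b call was lost without Flox16 or OE4 (adjusted p from 0.0563 to 0.0699). Prss2, Pnlip, Cela1 and Cpa1, among the most abundant enzymes, overlapped between groups and did not pass (log2 fold change -0.56, -0.57, -0.76 and -0.19). Of 6 Reg lectins, stress-induced acinar and islet proteins, 3 fell (median -1.51). Reg3d had 32.2, 19.7, 25.5 and 37 in OE and 78.1, 103, 65.1 and 47.6 in Flox (log2 fold change -1.33, adjusted p = 0.00403), and Reg2 had 29.3, 3.58, 36.3 and 94.8 in OE and 44.2, 213, 1037 and 699.9 in Flox (log2 fold change -3.50 ± 1.20, adjusted p = 0.0441), a call kept without Flox16 or OE4 at -4.40 and -4.13 and lost without Flox17, Flox20, Flox21, OE1, OE2 or OE3 (adjusted p from 0.0684 to 0.104).

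**Figure D4:**
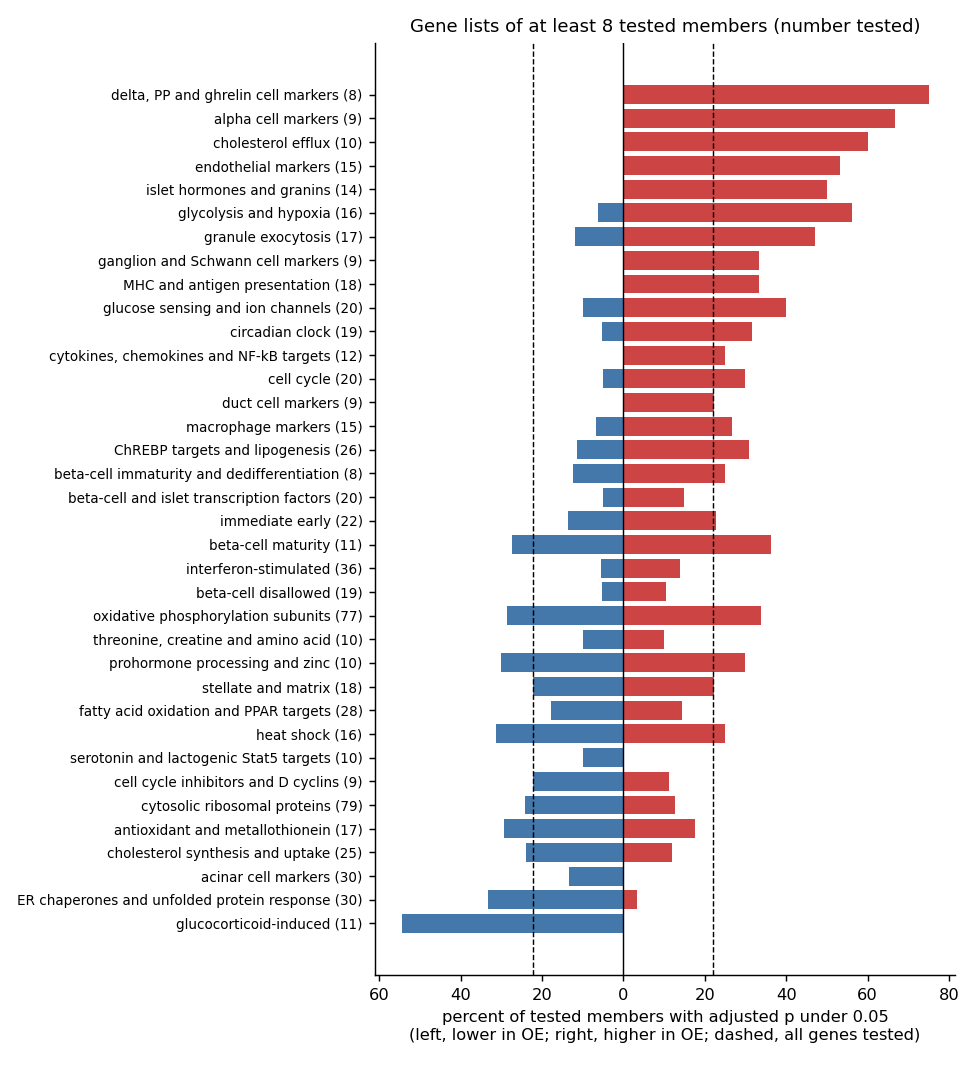
Percent of the tested members of each gene list with an adjusted p under 0.05, lower in OE to the left and higher to the right, for lists of at least 8 tested members (number tested in parentheses); dashed lines mark all genes tested, 22% higher and 22.3% lower. The δ, PP and ghrelin cell markers reach furthest to the right (75%) and the glucocorticoid-induced genes furthest to the left (54.5%), many lists pass 1 line, and some, such as oxidative phosphorylation subunits (33.8% and 28.6%), pass both.

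The genes with the largest falls were mostly low in both virus groups. Casp9, the initiator of the mitochondrial death pathway, had 3.7, 3.48, 3.74 and 3.55 scaled FPKM in OE, 63.9, 104, 20.3 and 15.7 in Flox, 3.52, 5.65, 12.5 and 3.09 in Ctrl and 107, 163, 131 and 136 in cKO (log2 fold change -3.23 ± 0.55, adjusted p = 0.00254). The 2 virus groups lay below the 2 chow groups, and Flox16 and Flox17 were the highest Flox libraries. Within Flox, Casp9 followed the acinar share of Flox16, Flox17, Flox20 and Flox21, 29.2, 37.5, 11.4 and 7.88%. The cKO libraries, of 38.3 to 48.5% acinar share, were highest. Ctrl2 and Ctrl3, of 60.6 and 79.2%, stayed at 5.65 and 12.5. The part of acinar cells in this fall was not tested. Rgs2, a brake on Gq-coupled receptors, had 22.2, 15.5, 17.1 and 18.4 in OE, 62.7, 161, 242 and 182 in Flox, 9.47, 27.8, 20.4 and 28.7 in Ctrl and 64.6, 67.7, 59.7 and 52.4 in cKO (log2 fold change -2.97 ± 0.37, adjusted p = 0.000651). Rabepk, a partner of the endosomal GTPase Rab9, had 2, 1.73, 1.87 and 1.68 in OE, 14.2, 8.75, 13 and 11.5 in Flox, 1.37, 1.52, 1.94 and 1.87 in Ctrl and 10.1, 12.8, 11.7 and 11.1 in cKO (log2 fold change -2.39 ± 0.14, adjusted p = 5.66e-05).

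Snx22, a sorting nexin, had 0.224, 0.0662, 0.0804 and 0.199 in OE and 2.57, 2.95, 1.84 and 1.51 in Flox (log2 fold change -2.06), Kcnf1, a silent potassium channel subunit, 1.87, 3.56, 2.65 and 3.28 in OE and 15.3, 3.72, 16.4 and 15.8 in Flox (log2 fold change -1.83), and Smim15 2.41, 2.04, 2.04 and 1.5 in OE and 9.2, 6.6, 8.94 and 8.73 in Flox (log2 fold change -1.83). In all 3 genes both virus groups lay below both chow groups. Sult1d1, a sulphotransferase of catecholamines, was 4.37, 4.9, 4.1 and 3.57 in OE, 5.12, 24.1, 18 and 25.5 in Flox and 2.41, 2.18, 1.88 and 2.98 in Ctrl (log2 fold change -1.77, adjusted p = 0.0141), with Flox16 near the OE values. Below both Flox and Ctrl stood, besides Sgk1 and Chordc1, Rpl22l1, a paralogue of a ribosomal protein, with 29.2, 24.5, 25 and 26.1 in OE, 108, 162, 124 and 111 in Flox and 37.9, 40.1, 97.6 and 56.6 in Ctrl (log2 fold change -2.24 ± 0.13, adjusted p = 5.66e-05), Taf13 (log2 fold change -1.34), a subunit of the general transcription factor TFIID, Zfp322a (log2 fold change -1.43), a zinc finger protein, and Gm41291 (log2 fold change -1.23), under 0.2 scaled FPKM in each OE library and so partly at the limit set by the pseudocount.

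Among the largest rises that both virus groups shared, Tgfbr3l had 15.6, 15.9, 15.3 and 21.4 in OE, 2.43, 6.26, 4.92 and 3.49 in Flox and 16.2, 9.99, 10.2 and 16.8 in Ctrl (log2 fold change 1.93 ± 0.24, adjusted p = 0.000518), Barhl1, a homeobox factor, 1.86, 1.33, 1.69 and 2.09 in OE, 0.125, 0.0724, 0.221 and 0.251 in Flox and 3.44, 2.88, 0.788 and 1.82 in Ctrl (log2 fold change 1.75), Hes1, a Notch target, 9.78, 14.6, 11.1 and 13.7 in OE, 4.07, 3.69, 2.68 and 4.03 in Flox and 13, 5.72, 8.35 and 13.8 in Ctrl (log2 fold change 1.63), and Ccn1, a matrix protein, 17.1, 30.4, 24.7 and 25.5 in OE, 5.87, 5.59, 9.49 and 9.62 in Flox and 51.6, 14.3, 18.7 and 87.1 in Ctrl (log2 fold change 1.63). Sncg, γ-synuclein, was 6.84, 12, 8.39 and 8.21 in OE and 0.0924, 3.5, 1.82 and 3.58 in Flox (log2 fold change 2.08), a call lost without OE2 (adjusted p = 0.0522), and it was 1.45 without Flox16. Rprml had 2.94, 4.05, 3.38 and 5 in OE and 0.0316, 1.8, 0.81 and 0.699 in Flox (log2 fold change 1.86), and Upk3a, a uroplakin, 3.39, 3.7, 2.72 and 2.37 in OE and 0.857, 1.02, 0.0736 and 0.242 in Flox (log2 fold change 1.86, adjusted p = 0.00167). Npy, neuropeptide Y, which marks immature β cells and δ cells among others, was 24.5, 16.4, 20.1 and 18.4 in OE, 12.2, 8.97, 1.49 and 5.11 in Flox and 11.4, 7.29, 4.19 and 11.1 in Ctrl (log2 fold change 1.74, adjusted p = 0.0261), a call lost without Flox21, OE1, OE3 or OE4 (adjusted p from 0.0507 to 0.0612).

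**Figure D5:**
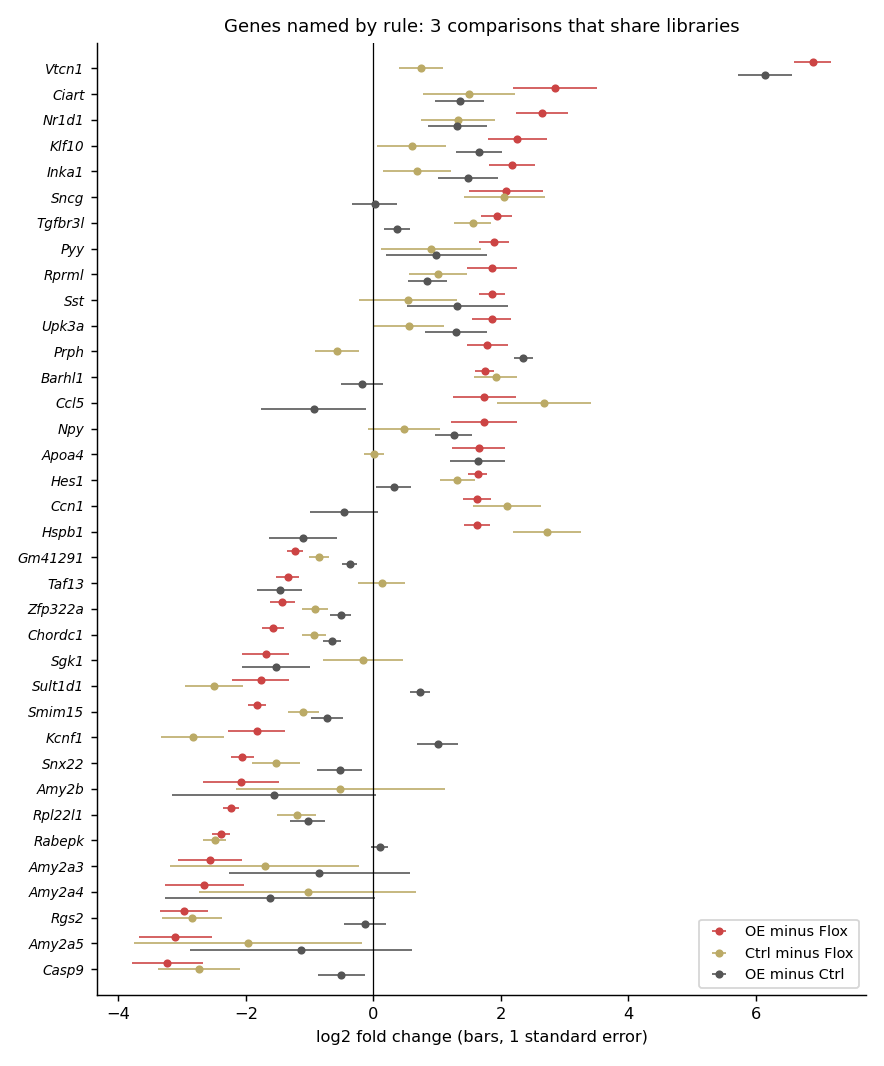
Log2 fold changes of the genes named by rule for OE minus Flox (red), Ctrl minus Flox (yellow) and OE minus Ctrl (grey), with bars of 1 standard error from limma; the comparisons share libraries. Rabepk, Rgs2 and Sncg lie near 0 for OE minus Ctrl, whereas for Apoa4, Taf13 and Sgk1 Ctrl minus Flox is the one near 0.

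Subunits of the same complexes moved in both directions. Of 77 subunits of oxidative phosphorylation, 26 rose and 22 fell. Ndufb1, Ndufb2 and Ndufc1, subunits of complex I, had log2 fold changes of -1.25, -1.05 and -1.07, while Ndufa11 and Ndufb7 of the same complex had 0.72 and 0.64, each with an adjusted p of 0.000525 or less. Of 79 ribosomal protein genes 10 rose and 19 fell, with Rpl39, Rps27 and Rps27a at -1.43, -1.08 and -1.11 and Rpl28 and Rps15 at 0.57 and 0.51. Without Flox17, 24 ribosomal protein genes rose. Reads of these genes may be shared with pseudogenes, which makes single values uncertain. By transcript length implied by the FPKM, the median log2 fold change fell from 0.0874 and 0.104 in the 2 deciles of shortest genes to -0.0892 and -0.0667 in the 2 deciles of longest genes, and for Ctrl minus Flox from 0.304 in the first decile to -0.239 in the last.

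Of 20 cell cycle genes 6 rose (30%, against 22% of all genes) and 1 fell (5%, against 22.3%), with a median of 0.349, and 12 rose without Flox17. The list median was 0.51 for Ctrl minus Flox, where 1 gene passed as higher, and -0.154 for OE minus Ctrl. The shift in the median was thus not particular to OE. Ube2c, a ubiquitin carrier of mitotic exit, had 3.01, 2.03, 2.43 and 2.18 in OE and 0.472, 1.44, 0.233 and 0.172 in Flox (log2 fold change 1.56, adjusted p = 0.00374), and Plk1, a mitotic kinase, 1.23, 0.866, 1.02 and 0.688 in OE and 0.199, 0.398, 0.123 and 0.0967 in Flox (log2 fold change 1.05). Plk1 was under a mean of 0.5 FPKM without OE1, so it was tested only through its OE values. Mki67, a proliferation marker, did not pass (log2 fold change 0.42), but did without Flox17 at 0.72 (adjusted p = 0.0194). Cdkn1b, the inhibitor p27, fell from between 23.1 and 28.1 in Flox to between 12.2 and 15.2 in OE and was 11.4 to 18.2 in Ctrl (log2 fold change -0.89, adjusted p = 0.000223). Of 22 immediate early genes 5 rose (22.7%, against 22% of all genes) and 3 fell (13.6%, against 22.3%). Nr4a1, an orphan receptor, and Dusp1, a phosphatase of MAP kinases, rose by 1.25 and 1.08, and Klf6 and Gadd45b fell by 1.14 and 1.08 on the log2 scale. The number that rose was 3 without OE2, OE3 or OE4 and 9 without OE1.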

How the data were processed

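Per the labels, islet RNA was sequenced on an Illumina NovaSeq and aligned to mm10, and the authors deposited FPKM in 2 tables, 1 for Flox and cKO and 1 for Ctrl and OE. The aligner, counter and annotation are not given in the sources used here. FPKM was divided by a median-of-ratios factor over the 8 OE and Flox libraries, genes with a mean FPKM of at least 0.5 over those 8 were kept, and log2(scaled FPKM + 0.5) was tested with limma 3.58.1 in R 4.3.3 (variance trend, robust fitting, two-sided, Benjamini-Hochberg adjustment over all genes tested). OE against Ctrl and Ctrl against Flox used the same genes and scale, across tables that were made separately. Called means an adjusted p under 0.05 and a log2 fold change beyond 1, and list counts use the adjusted p alone. FPKM of 16813 of the 16815 shared genes (99.99%) were whole multiples of 1 fragment, within 0.0001 plus 5e-08 per fragment, which gave the depths (without Ins2 and Dnah8) and the counts for a voom fit, chosen after seeing the data, that called 373 genes higher and 313 lower. The procedure was tested on simulated data.

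Genes named are Vtcn1, members of 46 gene lists and, in each direction, the 12 called genes of largest fold change without overlap, the 6 largest that also stood apart from Ctrl and the 6 largest with the 2 tables apart. Tph1 and the other genes that set Flox16 apart, and the genes called against Ctrl, were named after their values were seen. The members and lists were chosen with earlier results of these data known. Promoters and their coordinates are from RefSeq on GRCm38.p6, and mm10 is that build. Promoters were matched for 16 of 19 clock genes and 9 of 11 glucocorticoid-induced genes. Some members of the lists are not reported here by name.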

Additional observations from a re-analysis of the deposited data

Results flagged for a closer look

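The gap between the most extreme library and its nearest neighbour was compared with the range of its group (Dixon's ratio) in the 4 Flox and the 4 OE libraries for the 36 genes named by rule, and chance alone passes about 1 in 20 such groups. Of 72 groups, 3 held a library far from the other 3. Tph1, examined because its Flox16 value had been seen to stand apart and so not counted here, was 119 scaled FPKM in the library labelled Flox16 and 0.0287 to 0.116 in the other Flox libraries. Kcnf1 was 3.72 in Flox17, near the OE values, and 15.3 to 16.4 in the other Flox libraries. Smim15 was 6.6 in Flox17 and 8.73 to 9.2 in the other Flox libraries. Tgfbr3l was 21.4 in OE4 and 15.3 to 15.9 in the other OE libraries. Among the libraries, OE3 had 32 M assigned fragments where the other OE libraries had 29.6 to 29.9 M.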

How the results depend on the processing

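The number of called genes followed the pseudocount and the fold minimum. It was 113 higher and 88 lower with a pseudocount of 1, 308 and 271 with 0.1, and 373 and 313 with voom on recovered fragments (chosen after seeing the data), where 180 and 155 were called with 0.5, and 5314 genes in all without the fold minimum. With no scaling 100 genes were called lower, and 1652 and 1074 genes had an adjusted p under 0.05 higher and lower. Leaving out 1 library gave 144 to 238 genes called higher and 119 to 194 lower, 4 to 51 called in OE against Ctrl and 14 to 646 in Ctrl against Flox, the last 2 fits also chosen after seeing the data. Of 205 named genes under an adjusted p of 0.05, none reversed in any setting, but 41 lost the call with no scaling. With the acinar share as a covariate 14 of the 30 acinar markers were higher, among them 3 named genes of negative fold change without it, Cpa1 (0.54), Prss2 (0.24) and Pnlip (0.30). Leaving out 1 library moved Abca1 between -0.28 and 0.18 and Socs2 between -0.25 and 0.48. With no scaling 20 oxidative phosphorylation subunits rose and 8 fell, 2 heat shock genes rose and 2 fell, 2 cholesterol synthesis genes rose and 3 fell, and 1 islet transcription factor rose. The cause of these shifts was not tested. Deviations of samples of the same number correlated at 0.167, -0.0107, 0.00155 and 0.154, inside the -0.18 to 0.178 of samples of different numbers. So few pairs cannot settle whether the numbers mark a pairing, and no label says that they do. With the replicate block 179 genes were called higher and 162 lower, 10 MHC genes rose, and 7 of the 205 named genes lost the call. Fragments per library, 25.15 to 32.02 M, limit genes of a few fragments such as Vtcn1 in Flox, and all p-values rest on 4 libraries a group.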

Other observations

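Lipid oxidation and redox genes were mixed. Of 28 fatty acid oxidation genes and PPAR targets, 4 rose and 5 fell. Fabp3, a fatty acid carrier, rose by 1.12 and Ucp2, a mitochondrial uncoupling protein, by 0.52, and Cd36, a fatty acid translocase, had a log2 fold change of -0.61 (adjusted p = 0.0076, 0.000763 and 0.0186). Without 1 library, from 2 to 5 of these genes rose and from 1 to 7 fell. Of 17 antioxidant and metallothionein genes, 3 rose and 5 fell, with Gpx4, a peroxidase of membrane lipids, at 0.63 and Prdx1, a peroxiredoxin, at -0.46 (adjusted p = 0.000253 and 0.00106).

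Of 19 genes that β cells normally keep silent, 2 rose and 1 fell. Hk1, the low-Km hexokinase, rose by 0.81 on the log2 scale (adjusted p = 0.000656). Of 9 cell cycle inhibitors and D cyclins 1 rose and 2 fell, Ccnd2 by -0.30 (adjusted p = 0.0156). Of 10 genes of amino acid and creatine metabolism 1 rose and 1 fell, the creatine kinase gene Ckb at 0.75 and the folate enzyme gene Mthfd2 at -1.13 (adjusted p = 0.00634 and 0.0146). Of 9 duct cell markers 2 rose (22.2%, against 22% of all genes) and none fell, with a summed level of 459 to 503 scaled FPKM in OE inside the 345 to 1450 of Flox.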
